A study of Mus musculus with 6 samples.

Results

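The cytosolic ribosomal protein genes encode the structural proteins of the ribosome that translates nuclear messenger RNAs. They were chosen by name (Rps and Rpl genes with a number, Rplp0, Rplp1, Rplp2 and Rpsa) and by being above 0 in no fewer than 5% of cells. Of the 18792 genes in the table, 86 had such a name and 80 passed the limit, 32 of the small subunit and 48 of the large subunit. Rpl7l1 lay just inside the limit, with a value in 5.93% of cells, and Rps4l just outside it, with 2.67%. The other names below the limit were Rpl6l, Rpl39l, Rps3a3, Rps3a2 and Rpl3l. The choice used how often a gene had a value, so the levels of the members over all cells are a description.

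Single cells of mouse spinal cord were profiled by droplet-based scRNA-seq of the 3′ ends of messages. There were 6 libraries, 1 from non-immunized WT mice, 1 from non-immunized Nd6 mice, 2 from WT mice with experimental autoimmune encephalomyelitis (EAE) and 2 from Nd6 mice with EAE. The Nd6 genotype is a point mutation of mt-Nd6, which mitochondrial DNA encodes and which is part of complex I, and WT mice were C57BL/6. EAE, a T-cell-driven model of multiple sclerosis, was induced with a MOG peptide in females aged 8 to 20 weeks and was sampled at day 30. All groups were perfused with the transcription inhibitors actinomycin D and triptolide, and anisomycin, which blocks the ribosome, was in the digestion buffer.

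The deposited table holds 13614 cells in 6 sets that share a number in the cell name. The sets are called A to F here, from the largest (4633 cells) to the smallest (809 cells). The sets could not be linked to the libraries, so all cells count as 1 pooled sample. No comparison of genotypes or disease states was made, and there are no p-values. A range over sets, from sets with at least 20 cells of a class, shows the spread between sets. It is not a replicate error, since sets may differ in genotype and disease state. Sets differed in ways that bear on every pooled value. Apoe took between 0.115% and 9.26% of all values, and mitochondrially encoded genes between 5.07% and 9.90%, and 18 barcodes occurred in more than 1 set. The values are whole numbers that the authors had adjusted, so the sequencing depth behind them is unknown.

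Ribosomal proteins are made in matched amounts and assembled in the nucleolus, the Rps proteins into the 40S subunit and the Rpl proteins into the 60S subunit. Rplp0, Rplp1 and Rplp2 form the stalk of the large subunit that recruits elongation factors, and Rpsa sits on the small subunit. Their messages belong to the TOP class, which starts with a cytosine followed by a tract of pyrimidines and whose translation is controlled together by growth signals. Several members have a paralogue with a narrower distribution, such as Rpl22l1 for Rpl22 and Rps27l for Rps27.

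The promoter table of RefSeq (GRCm38.p6) held 60 of the 80 members, with 250 bases before and 50 bases after the annotated start. A run of at least 8 bases of only C or T that reached within 3 bases of the start was found in 22 of these 60 members (36.7%) and in 9.25% of the 27025 genes of the table. Only the coding strand was searched, and for a gene with several starts the one with the longest run was taken. The windows below run from 15 bases before to 15 bases after the annotated start, with the longest such run in capitals, cut where it leaves the window. They are shown for 9 of the genes with single-gene differences described further on. Other genes with such differences, among them Rpl22l1, Rps15a and Rpl13a, are not shown.

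Rpl38, chr11:114668565-114668594, plus strand: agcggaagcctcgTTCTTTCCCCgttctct
Rpl41, chr10:128549154-128549183, minus strand: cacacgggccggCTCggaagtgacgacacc
Rps12, chr10:23787195-23787224, minus strand: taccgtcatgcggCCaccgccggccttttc
Rpl24, chr16:55966260-55966289, plus strand: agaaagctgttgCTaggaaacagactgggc
Rps9, chr7:3704026-3704055, plus strand: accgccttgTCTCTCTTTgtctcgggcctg
Rps6, chr4:86857353-86857382, minus strand: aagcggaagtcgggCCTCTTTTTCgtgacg
Rps27, chr3:90213634-90213663, minus strand: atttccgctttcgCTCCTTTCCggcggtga
Rpl35, chr2:39005117-39005146, minus strand: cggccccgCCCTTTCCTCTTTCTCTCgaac
Rpl23, chr11:97782425-97782454, minus strand: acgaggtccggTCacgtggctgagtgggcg

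The run was 18 bases long in Rpl35, 10 in Rpl38 and Rps6, and 9 in Rps9 and Rps27. It was 3 bases in Rpl41 and 2 in Rps12, Rpl24 and Rpl23. Rpl38 and Rpl41, both above the median member in ependymal cells, thus lay on opposite sides of the limit. A short run means only that no longer one reached within 3 bases of the annotated start. The starts used in these cells were not determined, so whether such a message lacks the tract was not tested. Over all cells, the 22 members with a run had a median level of 13.1 per 10000, and the 38 matched members without one 14.1, with overlapping ranges.

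The members took 12.5% of all values in the table. In single cells the share ran from 2.23% to 25.6%, with a median of 12.1%, and a median of 53 members had a value in a cell (range 19 to 78). Cells were selected on this quantity before analysis: the methods give limits of 5% and 20% of reads in ribosomal genes for this dataset. On the deposited values 221 cells lay at or under 5% and 594 at or over 20%. The ends of the range, and percentiles of cells near these limits, are therefore shaped by the selection. Levels are given per 10000, that is, the summed value of a gene over the summed value of all genes, times 10000. They were not divided by gene length, because reads of this assay come from the 3′ end of a message, so the order below is an order of deposited values.

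Rps29, a small subunit gene at chr12:69157722-69159186, was the highest member at 54.4 per 10000 and had a value in 98.2% of cells. It was followed by the stalk gene Rplp1 (44.6 per 10000), Rps24 (39.5), Rpl23 (37.3) and Rps12 (29.97). These 5 genes held 16.5% of the ribosomal values and the top 10 held 26.7%. Of the 80 members, 66 had a value in at least 50% of cells and 4 in at least 90%. The other stalk genes were lower than Rplp1, with 17.4 per 10000 for Rplp2 and 12.9 for Rplp0, and Rpsa stood at 15.5.

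At the lower end were Rpl7l1 (0.648 per 10000), Rps27l (2.08), Rpl13a (2.68), Rpl22l1 (2.84) and Rpl15 (4.72). Rpl7l1 is a relative of Rpl7 with a role in assembly of the large subunit, whereas Rpl13a and Rpl15 encode core proteins of that subunit. The 10 lowest members held 3.32% of the ribosomal values. The median level was 15.3 per 10000 among small subunit members and 12.9 among large subunit members.

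Each main gene stood above its paralogue. Rpl22 was at 12.005 per 10000 against 2.84 for Rpl22l1, Rps27 at 19.5 against 2.08 for Rps27l, and Rpl7 at 7.49 against 0.648 for Rpl7l1. Rpl3 (11.6), Rpl39 (24.4) and Rps4x (20.6) faced paralogues that fell below the 5% limit. Near-identical copies make some levels uncertain. The 78 pseudogene rows of the table added up to 0.491% of the members' summed value, but reached 14.2% of the level of Rps10.

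**Figure D1:**
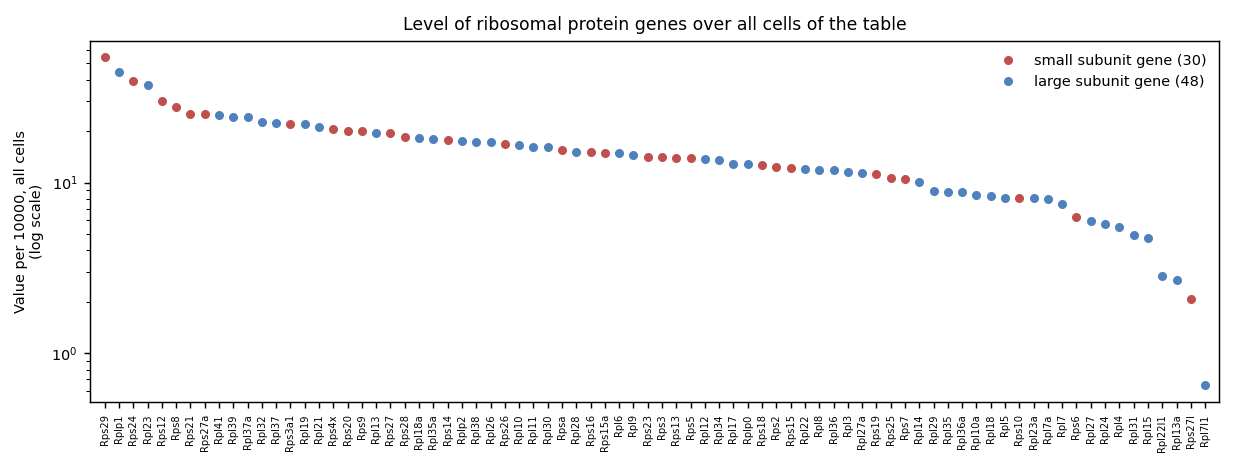
Level of 78 of the 80 ribosomal protein genes over all cells of the table, as value per 10000 on a log axis, in falling order, with 30 small subunit genes in red and 48 large subunit genes in blue. Rps29 stood highest at 54.4 per 10000, and Rpl7l1 lowest at 0.648.

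Cells were placed in 7 lineages and myeloid cells in 8 states by counting marker genes with a value, from lists of 10 to 12 genes. For the non-myeloid lineages, a marker with a value in over 20% of all cells was not counted. RNA released during dissociation carries such messages into other droplets. The same rule held for the myeloid states other than homeostatic microglia, and left out Lyz2 and Fn1 of the monocyte-like list. All 12 pan-myeloid markers were counted, although they had a value in 21.3% (Fcgr3) to 83.2% (C1qa) of cells outside the myeloid class. Of the 13614 cells, 9321 were myeloid and 821 belonged to 6 other lineages. A further 3464 were placed in no lineage, and 8 passed the gates of more than 1 non-myeloid lineage. The 3464 include cells that passed a gate but were left out for markers of another kind of cell. Most of these markers were counted in the gates, so their presence in the gated cells is no separate check. The median marker had a value in 81.7% of myeloid, 77.7% of oligodendrocyte, 65.5% of endothelial and 56.8% of ependymal cells. It had one in 49.2% of T cell or NK cell, 44.3% of pericyte or smooth muscle and 40.6% of astrocyte cells. The myeloid gene Tyrobp also had a value in 25.8% (ependymal) to 74.6% (astrocyte) of the cells of the non-myeloid lineages, against 94.8% in myeloid cells. The part of released myeloid RNA in the non-myeloid values was not tested.

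Myeloid cells (microglia and infiltrating monocytes and macrophages) had the highest pooled ribosomal share of the 7 lineages. Ribosomal protein genes took 12.9% of their values (range over 6 sets 11.9% to 14.1%). Ependymal cells, the ciliated lining of the central canal, followed with 11.8% (12.2% in set D and 11.2% in set E) and astrocytes with 11.3% (10.97% to 11.6% over 3 sets). The remaining lineages lay between 8.44% and 9.37%. The place of myeloid over ependymal cells was not fixed. Among cells in the middle range of gene numbers (410 to 686), ependymal cells were higher, with 13.95% against 12.9% in myeloid cells.

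Endothelial cells of the vessels gave the comparison with most sets. Their share was 8.91% in 307 cells. It was 9.78% in sets A and C, 9.24% in set B, 7.93% in set D, 7.47% in set E and 9.04% in set F. Each of the 6 values lay below the myeloid value of the same set, at 0.556 to 0.822 times that value, and the endothelial and myeloid ranges did not overlap.

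Oligodendrocytes, which make myelin, had the lowest share, 8.44% in 128 cells. The values were 9.10% in set A, 8.81% in set B and 6.80% in set E, again each below the myeloid value of its set. T cells or NK cells (62 cells) had a share of 9.29%, and 9.70% in set B, the only set with at least 20 such cells. Pericytes or smooth muscle cells (70 cells) had a share of 9.37%, but the 23 cells of set A gave 11.8%, close to the 11.9% of myeloid cells there. The order among oligodendrocytes, endothelial cells, T cells or NK cells and pericytes or smooth muscle cells is therefore not fixed by these data. Over all non-myeloid lineages together the share was 0.753 times the myeloid share (0.645 to 0.862 over 6 sets).

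**Figure D2:**
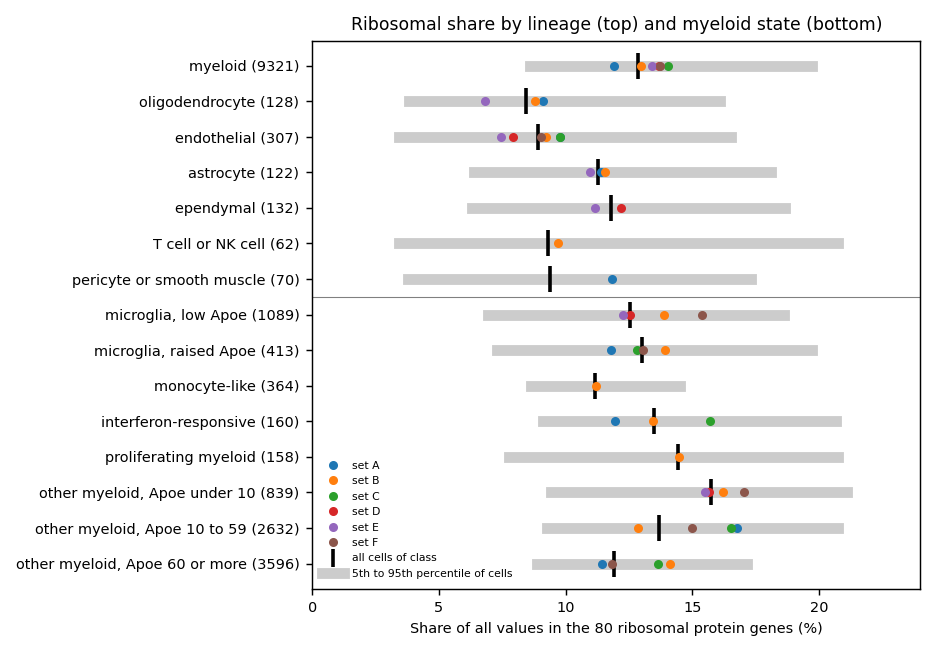
Share of all values held by the 80 ribosomal protein genes (x axis, %) in 7 lineages and 8 myeloid states, with the number of cells in brackets. Black bars mark all cells of a class, grey bars the 5th to 95th percentile of its cells, and points the sets with at least 20 cells. The 6 endothelial points lie between 7.47% and 9.78%, left of all 6 myeloid points.

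Many members moved together in this comparison. Myeloid cells were above all other gated cells in 72 of 80 members on the share of the total, with a median ratio of 1.30, against 1.01 for the 2633 genes that passed the same 5% limit. At a ratio of at least 1.5, 13 members were higher in myeloid cells and 0 lower, where 24.2% and 19.9% of all tested genes were. So the count past 1.5 was no larger than the background, and the shift was broad and moderate. When the 6 sets of myeloid cells were set against the 6 sets of non-myeloid cells, 34 of 80 members (background 9.27%) had all myeloid values above all non-myeloid values, and 0 of 80 (background 9.12%) had them all below. The genes of the background were not matched to the members on level.

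The ribosomal share fell as cells had values in more genes, so the number of genes was taken into account. Myeloid cells were ordered by number of genes into 10 groups of equal size. The share was 15.8% in the group with the fewest genes (201 to 356), 13.03% in the fifth group and 10.98% in the group with most (768 to 1258). When each set was divided into 3 groups of equal size, the share was 14.2% to 15.8% in the cells with the fewest genes and 10.4% to 12.9% in those with most, lower in 6 of 6 sets.

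Against other myeloid cells matched on gene number within each set, the share stayed lower in 5 of the 6 non-myeloid lineages. The ratio was 0.663 in oligodendrocytes, 0.706 in pericytes or smooth muscle cells, 0.746 in endothelial cells, 0.785 in T cells or NK cells and 0.809 in astrocytes. In ependymal cells, which had the most genes per cell (median 751, against 550 in myeloid cells), it was 0.998. Thus only the ependymal share, of these 6, was close to that of myeloid cells with as many genes.

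**Figure D3:**
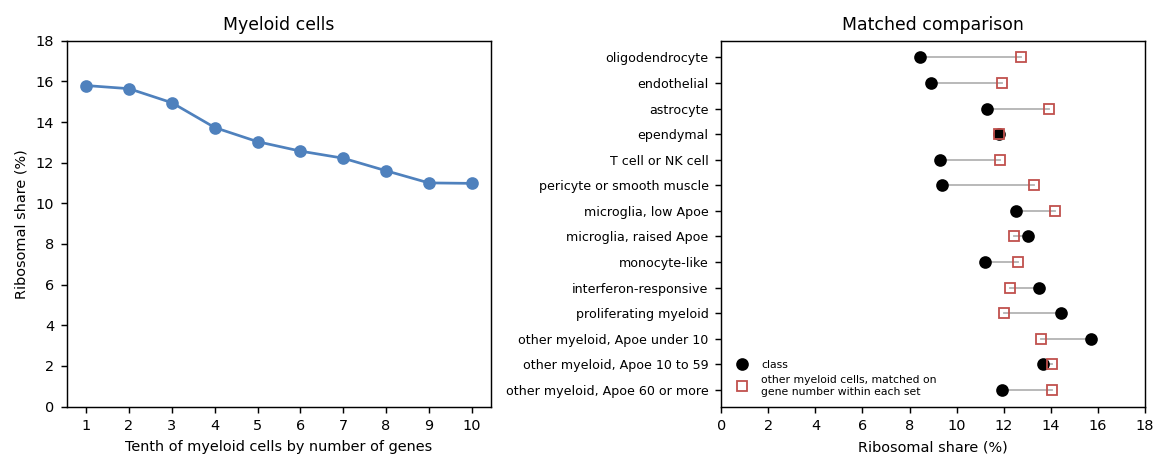
Left, ribosomal share (%) of myeloid cells in 10 equal groups ordered by number of genes, falling from 15.8% to 10.98%. Right, ribosomal share (%) of each class (filled circles) and of other myeloid cells matched on gene number within each set (open squares), which coincide in ependymal cells at 11.8%.

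Among the 8 myeloid states, monocyte-like cells had the lowest pooled share, 11.2%. Myeloid cells that reached no state's marker limit and had an Apoe value under 10 had the highest, 15.7%. These cells did not lack markers. They had a median of 3 homeostatic microglia markers, where the gate needed 5 and all myeloid cells had a median of 2. Their median number of genes was 409, against 582 in microglia with low Apoe. Whether they are microglia that missed the gate was not tested. Apoe is the lipid carrier that microglia and macrophages raise in disease. Cells that reached no state's marker limit and had an Apoe value of 10 to 59 had a share of 13.7%. Those with 60 or more had 11.9%. Apoe itself took 10.3% of the values of the last group, and the difference remained with Apoe and the 6 other most abundant genes taken out of the total (ratio of lowest to highest Apoe band 1.29, against 1.32).

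The order of Apoe bands did not hold in every set. The lowest and the highest band could be compared within 2 sets, with shares of 16.2% and 14.1% in set B and 17.0% and 11.8% in set F. The middle band exceeded the highest in set A (16.8% against 11.4%), set C (16.5% against 13.6%) and set F (14.99% against 11.8%). In set B it was lower, with 12.9% against 14.1%, and the highest band held 32 cells there. Sets D and E had nearly no Apoe and gave no such comparison. Against other myeloid cells matched on gene number within sets, the ratio was 1.16 for the lowest band, 0.974 for the middle band and 0.849 for the highest.

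Microglia with homeostatic markers had shares close to that of all myeloid cells. The share was 12.5% with an Apoe value under 10 (range over 4 sets 12.3% to 15.4%) and 13.02% with a value of 10 or more (11.8% to 13.9%), and these ranges overlapped. Interferon-responsive cells had a share of 13.5%, with 11.96% in set A, 13.5% in set B and 15.7% in set C, at 1.01 to 1.12 times the myeloid value of its set. Microglia with low Apoe came mostly from sets D and E, and matched within sets they stood at a ratio of 0.885.

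Proliferating myeloid cells had the highest share among the states defined by markers, 14.4% in 158 cells. Monocyte-like cells had the lowest, 11.2% in 364 cells. Most cells of both states lay in set B (137 and 355 cells), so they could be compared within 1 set, where the shares were 14.5% and 11.2% against 12.97% for all myeloid cells. Proliferating cells had more genes than myeloid cells as a whole (median 717), which goes with a lower share in the other cells, and the matched ratio within sets was 1.20. In monocyte-like cells it was 0.889. Hence these states differed in share by 1.29 times within the same set, in opposite directions from cells with as many genes.

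The small subunit genes took 0.851 times as much as the large subunit genes in myeloid cells. The ratio was lower in each of the other lineages, from 0.811 in astrocytes and 0.810 in oligodendrocytes to 0.724 in ependymal cells. Ependymal cells stood at 0.851 times the myeloid ratio, and at 0.911 times it within set D and 0.861 times within set E. Among myeloid states the ratio was highest in monocyte-like cells (0.873) and lowest in microglia with low Apoe (0.815).

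Single genes departed from the others against this shared movement. For each class, a member's level was divided by its level in all other gated cells (for states, all other myeloid cells with a state), and this ratio was divided by the median ratio of the 80 members. A relative value of 1 thus means that a gene moved like the median member. Over the 6 non-myeloid lineages, 42 of 480 such values were at least 1.5 times above or below the median member, and over the 8 states 17 of 640. Within sets with at least 20 cells of the class, 28 of the 42 values were past the limit in every set, as were 4 of the 17. Every set meant only 1 set for T cells or NK cells, pericytes or smooth muscle cells, proliferating cells and monocyte-like cells. For ependymal cells it meant 2. The cells of these sets are also part of the pooled cells. In every class the members departed less often than the genes tested as a whole did from their own median. These genes were not matched to the members on level, and 66 of the 80 members had a value in at least 50% of cells. Whether the members departed less often than other genes of like level was not tested.

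Ependymal cells held the largest departure upward and the second most departures after T cells or NK cells. There, 8 of 80 members were at least 1.5 times above the median member (background 34.1%) and 4 of 80 at least 1.5 times below it (background 39%). Rpl41, which encodes one of the smallest proteins known, was at 60.6 per 10000 in ependymal cells against 24.2 in all other gated cells, a relative value of 2.69. It was at 64.6 against 26.6 in set D and at 57.8 against 24.1 in set E. Both sets thus showed it, and the relative value was 2.68 in set D and 2.65 in set E.

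Rpl38, a large subunit gene known from its role in patterning of the axial skeleton in mice, was at 33.3 per 10000 in ependymal cells against 17.0 elsewhere (relative value 2.10). The values were 39.3 against 18.4 in set D and 29.6 against 16.9 in set E. Rps2 (relative value 1.78), Rpl24 (1.80) and Rpl7 (1.58) were also above, but the values within the sets were 1.46 and 1.58 for Rpl24 and 1.31 and 1.37 for Rpl7. So were the low genes Rpl22l1 (5.99 against 2.77 per 10000, relative value 2.33), Rps27l (1.62) and Rpl7l1 (2.21), although the last rests on a summed value of 20.

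Among the members below in ependymal cells, Rps12 was at 15.3 per 10000 against 30.6 elsewhere (relative value 0.54), with 17.3 against 32.2 in set D and 14.4 against 31.8 in set E. Rpl32 (0.61) and Rpl10 (0.63) were also below. For Rpl32 the values within sets D and E were 0.82 and 0.79, less far from the median than the pooled value.

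**Figure D4:**
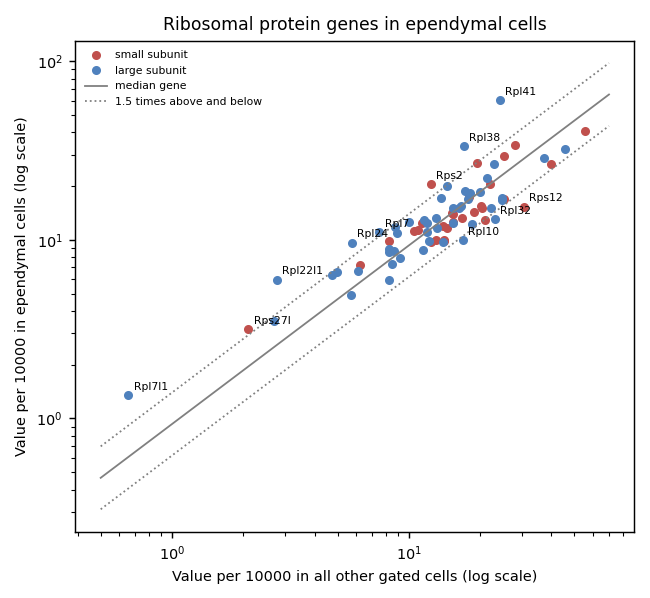
Level of 78 of the 80 genes in 132 ependymal cells (y axis) against all other gated cells (x axis), as value per 10000 on log axes. The solid line marks the median gene and dotted lines mark 1.5 times above and below it. Rpl41 (60.6 against 24.2 per 10000) and Rpl38 (33.3 against 17.0) lie above, and Rps12 (15.3 against 30.6) lies below.

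In endothelial cells 1 of 80 members was above (background 23.6%) and 1 below (background 23.2%). The one above was again Rpl38, at 20.8 per 10000 against 17.2 in other cells (relative value 1.68, range over sets 1.40 to 1.97). In 5 of 6 sets its level exceeded that of other cells (from 19.4 against 17.5 in set E to 25.4 against 17.7 in set C), although the ribosomal share as a whole was lower, and in set F it was 21.0 against 22.1. The gene below was Rps9, at 9.84 against 20.5 per 10000 (0.66, range 0.46 to 0.81). In each of the 6 sets its level was lower in endothelial cells, between 5.57 and 12.4 per 10000, where other cells had 18.9 to 22.7.

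Oligodendrocytes had 5 of 80 members above (background 29.8%) and 1 below (background 29.6%). Rpl24, which encodes a large subunit protein at the subunit interface, was at 7.27 per 10000 against 5.77 (relative value 1.89, range over 3 sets 1.72 to 2.41). Rpl7 was at 8.21 against 7.54 (1.64, range 1.51 to 1.88). These genes stood near or above the level of other cells where the median member stood at 0.67 times that of other cells. In set E both were lower than in other cells, at 5.65 against 6.06 for Rpl24 and 7.39 against 9.04 for Rpl7. Rpsa (1.52), Rpl15 (1.51) and Rpl13a (1.53) were also above. The range over sets was 1.39 to 1.92 for Rpsa and 1.13 to 1.84 for Rpl15, and for Rpl13a the direction turned in 1 of the 3 sets. Rps27l, with a summed value of 12, was the gene below (range over sets 0.48 to 1.54), and Rps4x, an X-linked small subunit gene, lay just inside the limit (9.37 against 20.9 per 10000, relative value 0.67).

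T cells or NK cells had 7 of 80 members above (background 31.7%) and 6 below (background 31.1%). Rps15a was at 19.7 per 10000 against 15.2 elsewhere (relative value 1.79) and Rps27 at 24.4 against 19.6 (1.73), whereas the median member stood at 0.72 times the level of other cells. Within set B (27 cells) Rps27 was at 22.7 against 16.0. Rpl22l1 (1.67), Rpl13a (1.66), Rpl36 (1.60), Rpl17 (1.55) and Rpsa (1.51) were the others above, with Rpsa at 1.34 within set B. Rps25 (0.58), Rpl10 (0.64) and Rps12 (0.64) were among those below, with Rpl10 at 0.70 within set B. So were Rps27l (0.48) and Rpl7l1 (0.31), which rest on summed values of 5 and 1. Rps27 and Rps27l lay on opposite sides of the median here, and Rpl22 (0.82) and Rpl22l1 likewise, but in the other order.

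Pericytes or smooth muscle cells had 6 of 80 members above (background 28%) and 1 below (background 30.8%). Rpl22l1 was at 4.77 per 10000 against 2.80 (relative value 2.31) and Rps6, the small subunit protein that S6 kinases phosphorylate, at 8.64 against 6.19 (1.90). The values in set A were 2.38 and 1.91. Rpl35 (1.73), Rpl24 (1.54), Rps27l (1.82) and Rpl7l1 (1.53) were also above, but Rps27l was at 0.81 within set A. Rpl12 was below, at 5.96 against 13.96 (0.58), but at 0.73 within set A, inside the limit. In astrocytes Rpl13a was above (3.93 against 2.70, relative value 1.62, range over 3 sets 1.26 to 1.86, background 19.5%) and Rpl7l1 below with a summed value of 4 (0.60, background 19.3%).

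Certain members stood on the same side of the median in all 6 non-myeloid lineages. Rpl13a, Rpl27a, Rpl38, Rpl9 and Rps6 were above it in all 6, and Rpl22, Rpl23, Rpl32, Rps24, Rps28 and Rps4x were below it in all 6. These comparisons share the myeloid cells among their controls. Among the members above, the lowest value was 1.17 for Rpl13a, 1.10 for Rpl38, 1.05 for Rps6, 1.02 for Rpl27a and 1.002 for Rpl9. Among those below, the highest value was 0.96 for Rpl22, 0.97 for Rps4x and Rps24, and 0.98 for Rpl23. It was 0.993 for Rpl32 and 0.995 for Rps28. Several members were thus counted on values close to the median member. The share of all tested genes with such a pattern was not determined. Within the ribosomal sum, 9 members separated all 6 sets of myeloid cells from all 6 sets of non-myeloid cells. Among them, Rpl10, Rps9 and Rps12 took a larger part of it in myeloid cells. Rps12, for example, took 2.30% to 2.60% of the ribosomal values in myeloid cells and 1.68% to 2.17% in non-myeloid cells.

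Rpl41, Rpl38, Rpl24, Rps6 and Rpl5 took a smaller part in myeloid cells. Rpl38 took 1.19% to 1.61% there and 1.78% to 2.70% in non-myeloid cells. Rps6 took 0.417% to 0.562% and 0.598% to 0.759%. On another measure, the share of the total, 9.27% of the tested genes had all myeloid sets above and 9.12% had them all below. There, 34 of the 80 members were above and 0 below. For the part of the ribosomal sum no background was determined, so the 9 of 80 members cannot be set beside these shares.

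**Figure D5:**
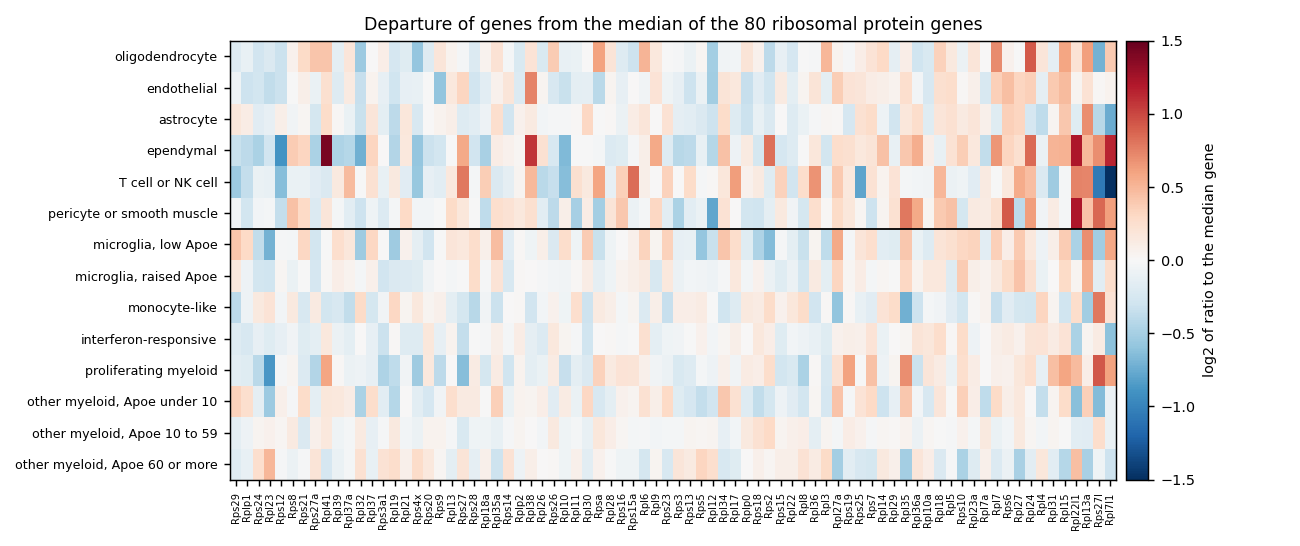
Relative value of 78 of the 80 genes (columns, from the highest to the lowest level) in 6 non-myeloid lineages and 8 myeloid states (rows), as log2 of the ratio to the median gene, with red above and blue below. The colours end at 1.5 on the log2 scale in both directions. Rpl41 and Rpl38 in ependymal cells stand out among the abundant genes, and the strongest colours of the states are in the proliferating cells.

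Departures were fewer in myeloid states, where 17 of 640 values passed the limit. Proliferating cells held 8 of them, with 6 members above (background 17.5%) and 2 below (background 24.5%). Rpl35, a large subunit protein near the exit tunnel, was at 16.8 per 10000 against 8.83 in other myeloid cells (relative value 1.63), and at 16.8 against 8.18 within set B. Rps19, the gene most often mutated in Diamond-Blackfan anaemia, was at 20.2 against 11.3 (1.52), but at 1.42 within set B, inside the limit. Rps27l, a p53 target, was at 4.69 against 2.10 (1.91), but at 1.38 within set B. Rpl41 (1.51), Rpl15 (1.51) and Rpl7l1 (1.52) were just past the limit. Within set B, Rpl41 was at 1.42 and Rpl7l1 at 1.49, inside it.

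Rpl23, the fourth most abundant member, moved against the rest in proliferating cells. It was at 24.9 per 10000 against 38.8 (relative value 0.55), and at 24.8 against 40.6 within set B. It had a value in about as many cells (94.3% against 94.7%). Rps27 was the other member below (14.9 against 19.8, 0.64), at 0.76 within set B.

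Monocyte-like cells had 1 member above (background 6.8%) and 2 below (background 9.95%). Rpl35 was at 4.91 per 10000 against 9.16 (relative value 0.61), and at 4.998 against 9.21 within set B, the opposite of its place in proliferating cells. Rpl27a was at 7.004 against 11.9 (0.66, and 0.73 within set B). Rps27l was at 3.23 against 2.11 (1.73, and 1.31 within set B). The values of Rpl27a and Rps27l within set B lay inside the limit of 1.5 times.

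Microglia with low Apoe had 1 member above (background 18.4%) and 2 below (background 21.3%). Rpl23 was at 23.8 per 10000 against 40.7 in other myeloid cells (relative value 0.61), but the values within sets were nearer to each other: 28.8 against 39.8 in set B, 22.7 against 34.0 in set D, 24.5 against 31.6 in set E and 28.3 against 35.1 in set F. The relative values within sets ran from 0.69 to 0.97, so Rpl23 passed the limit in none of the 4 sets. Rps2 was at 8.14 against 13.4 (0.64, range over sets 0.54 to 0.88). Rpl13a was at 3.90 against 2.52 (1.63, range 1.16 to 1.71).

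The other states stayed close to the median member. In interferon-responsive cells 0 members were above (background 7.48%) and Rpl7l1, with a summed value of 8, was below (background 12.3%, range over sets 0.55 to 2.23). In cells with an Apoe value under 10 that reached no state's marker limit, 0 were above (background 11.7%). Rps27l (0.64) and Rpl22l1 (0.65) were below (background 19.6%), each with a range over sets that reached past 1. No member passed the limit in microglia with raised Apoe (backgrounds 5.66% and 7.22%), in the band of Apoe 10 to 59 (4.03% and 4.67%) or in the band of 60 or more (12.3% and 7.9%).

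The stalk genes passed the limit in no lineage. Rplp2 lay between 0.85 and 1.11 relative to the median member in the 6 non-myeloid lineages, Rplp0 between 0.79 and 1.14, and Rplp1 between 0.76 and 1.08. Rpsa, past the limit in oligodendrocytes and in T cells or NK cells, ranged from 0.70 in pericytes or smooth muscle cells to 1.52 in oligodendrocytes. On the level itself, Rplp1 was at 46.9 per 10000 in myeloid cells. It was at 66.5 in cells with an Apoe value under 10 that reached no state's marker limit.

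A list of 20 other translation genes, made of elongation and initiation factors and ribosome-associated genes such as Fau, Rack1, Tpt1, Npm1, Nap1l1, Naca, Btf3, Pabpc1 and Hnrnpa1, was set beside the members. In myeloid cells their summed level was 192 per 10000 against 133 in other gated cells, and 7 of the 20 were at least 1.5 times higher (background 24.2%) and 0 lower (background 19.9%). Fau, which encodes the small subunit protein fused to a ubiquitin-like protein, was at 36.4 against 21.5, Rack1, a scaffold on the 40S head, at 11.8 against 6.37, and the elongation factor gene Eef1a1 at 38.9 against 25.5.

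In ependymal cells the list as a whole was at 119 per 10000 against 188, and 8 of 20 genes were at least 1.5 times lower (background 46.6%) and 1 higher (background 22.2%). Fau was at 16.6 against 35.4, Eef1a1 at 19.1 against 38.0 and Eef2 at 2.29 against 5.33. The median ratio of the 20 genes was 0.71 there, where that of the 80 members was 0.93 and that of all tested genes 0.73. In the other non-myeloid lineages the list stood at 0.694 to 0.831 times its level in other cells.

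Genes of ribosome assembly, with 5 of 12 listed above the 5% limit, were higher in proliferating cells. In proliferating cells the summed level of the 12 genes was 16.6 per 10000 against 9.39, and 3 of the 5 were at least 1.5 times higher (background 23.9%). Ncl, a nucleolar protein, was at 6.67 against 3.51, Nhp2 at 1.21 against 0.561 and Nop10 at 1.99 against 1.17. The 78 genes of the mitochondrial ribosome, a separate machine that translates mitochondrially encoded messages, stood at 56.8 against 36.1 in proliferating cells, with 16 of the 24 above the 5% limit at least 1.5 times higher (background 23.9%).

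In ependymal cells the mitochondrial ribosome genes stood at 74.8 per 10000 against 36.5 elsewhere, a ratio of 2.05, and 15 of 24 were at least 1.5 times higher (background 22.2%) and 2 lower (background 46.6%). The cytosolic members had a median ratio of 0.93 in the same cells, so the genes of the 2 ribosomes were placed differently there. In myeloid cells as a whole the mitochondrial ribosome genes were at 36.5 against 42.5, while the median cytosolic member was at 1.30.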

How the data were processed

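Per the labels, libraries were made with a 10x 3′ v2 kit and reads were processed with Cell Ranger 7.1.0 (GRCm38) and Seurat 4.3.0.1. Per the study's methods, cells were kept on gene and UMI numbers, mitochondrial share and a ribosomal share between 5% and 20%. The authors deposited 1 table of whole-number values per gene and cell, treated here as a score and not as counts, since the cell totals are nearly equal and how the values were made from UMIs is not given in the sources used here. No count model, depth interval or p-value was used. A planned comparison of groups was not possible, since cells carry no library. Values were summed over the cells of a class and divided by the total of all genes, in Python 3.11.15 with numpy 2.4.6, scipy 1.17.1 and pandas 2.3.3. Lineages needed 4 markers (5 for oligodendrocytes and endothelial cells), myeloid cells 7 pan-myeloid markers, homeostatic microglia 5 and other states 3. These limits were set after marker counts had been seen. Cells that passed the gates of more than 1 non-myeloid lineage were left out. Myeloid cells with at least 3 markers of a non-myeloid lineage or of another listed cell type, such as neutrophils, were left out too. So were non-myeloid cells with at least 3 markers of those other cell types or of proliferation. Myeloid markers did not exclude a cell from a non-myeloid lineage. No doublet caller was run, so doublets with myeloid cells were not removed from those lineages. Gene coordinates are from GENCODE M21 (GRCm38). Named genes were the 5 highest and 5 lowest members, the 3 highest and 3 lowest relative to the median member in each class, all members past 1.5 times in a class, paralogue pairs, the stalk genes and Rpsa, and the listed translation genes. Some of the genes covered are not reported here. The members and lists were chosen with earlier results of these data known. The calculation was tested on simulated data. Alternatives were another total, other cell or gene limits, stricter gates and leaving out each set.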

Additional observations from a re-analysis of the deposited data

How the results depend on the processing

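No paired analysis was possible because cells carry no library and no result comes from a test. The share of non-myeloid over myeloid cells (0.753) ran from 0.706 to 0.830 over 8 other settings and from 0.711 to 0.769 without 1 set. The share of the lowest over the highest Apoe band (1.32) ran from 1.17 to 1.40 over 8 settings and from 1.17 (without set A) to 1.37 without 1 set. Proliferating over monocyte-like cells (1.29), for which only set B gave a value, was 1.33 by the median cell, 1.26 without mitochondrially encoded genes in the total, 1.23 without Apoe and other genes over 1% of values, 1.290 with members in at least 20% of cells, 1.253 within the stated limits on cells, 1.43 in the middle range of gene numbers (410 to 686), 1.31 with 1 marker more and 1.46 for values per cell not scaled to the total, an alternative chosen after seeing the data like the match on gene number. It was 1.28 to 1.35 without 1 set. The subunit ratio of ependymal over myeloid cells (0.851) ran from 0.841 to 0.857 and from 0.837 to 0.859 without 1 set. Departures of single genes rest on the limit. In the 6 non-myeloid lineages they numbered 133 at a looser limit, 8 at 2 times and 11 when the share of cells with a value replaced the value (42 in the report), and 41 to 47 without 1 set. In the 8 states they numbered 90, 0 and 10 (17 in the report), and 11 with members in at least 20% of cells. Without 1 set they were 14 to 40, the highest without set B, which leaves few monocyte-like and proliferating cells. On the share of cells with a value, Rpl41 in ependymal cells was at 1.13 and Rpl38 at 1.17 in place of 2.69 and 2.10, as most cells of every class had a value. Rpl35 in monocyte-like cells was at 0.27 without set B, and Rps27l in T cells or NK cells at 0.20 (0.48 in the report). In the middle range of gene numbers the ependymal share (13.95%) exceeded the myeloid share (12.9%), unlike in the pooled cells. No direction turned under these settings for these ratios and the 22 single-gene values followed. The unknown depth limits all values of low members.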

Other observations

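The share of the ribosomal protein genes over all cells of a set ran from 11.7% in set A to 13.4% in set C, while the median number of genes per cell ran from 639 in set A down to 408.5 in set C. Cells in which these genes took at least 20% of the values were found in each set, from 3.15% of the cells of set A to 6.19% of those of set C. A share of 20% and one of 5% are the limits on the ribosomal share by which cells had been selected, so the counts at both ends are of cells that lie past those limits on the deposited values. In lineages they were most frequent among T cells or NK cells (4 of 62 cells, 6.45%), which also held the largest part of cells at or under 5% (16 of 62, 25.8%), so that this lineage spanned both ends. Endothelial cells were at or under 5% in 53 of 307 cells (17.3%) and myeloid cells in 0.547%. Among the non-member genes of the translation list, the annotated start of Fau and Rack1 carried a run of 16 bases of C or T, that of Eif3f 15 and that of Eef1a1 10.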
